A study of Mus musculus with 13 samples.

Results

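The genes described here are 38 genes of the type I interferon response, taken by symbol from a table of FPKM (a read density corrected for transcript length and for library depth) that holds 39171 genes, in which all 38 were found. They were followed in RNA sequencing libraries of microglia and astrocytes sorted from the spinal cord of C57BL/6 mice. Microglia were sorted by the surface protein CD11b, and astrocytes by green fluorescent protein driven by the astrocyte gene Aldh1l1. The mice were Il33 knockouts (KO) or littermate controls, called WT here. Il33 encodes interleukin-33, an IL-1 family cytokine. The groups were 3 WT and 3 KO microglia libraries, all from postnatal day 12, and 3 WT and 4 KO astrocyte libraries from day 12, except WT astrocytes 3 and KO astrocytes 2, which were from day 9. CD11b is also carried by other myeloid cells, so a CD11b sort is not limited to microglia. The series' design text calls the libraries of a group biological replicates.

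Type I interferons are secreted when sensors detect foreign or misplaced nucleic acid in a cell. They bind a receptor made of IFNAR1 and IFNAR2, and the kinases JAK1 and TYK2 then activate STAT2, which acts with IRF9 at the promoters of interferon-stimulated genes. Those genes encode proteins that sense, cut or block viral RNA and DNA, and many also raise the sensors and factors of the response itself. In the central nervous system, microglia and astrocytes both carry the receptor.

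Promoter sequences from RefSeq on GRCm38.p6, each 250 bases before to 50 bases after a gene's start, were found for 27 of the 38 genes. They were searched on both strands for GAAA followed by any 2 bases and a further GAAA, a form of the interferon-stimulated response element. Overlapping matches were counted separately. The letters were found in 14 of the 27 genes (51.9%) and in 1079 of all 27025 genes with a promoter in the table (3.99%). By promoter, 15 of 32 (46.9%) held them, against 1131 of 32851 (3.44%). The genes without a promoter in the table were Oas2, Mx1, Mx2, Ifi204, Ifi27l2a, Dhx58, Usp18, Parp9, Parp14, Zbp1 and Rtp4. A match is a run of letters and not a measured binding site. The 6 promoters printed next belong to genes that the results turn on, namely the 3 with the smallest p among the lower genes of KO microglia (Isg15, Ifi203, Ifi44), the gene with the smallest p among the higher (Trim30a), and the neighbours Rsad2 and Cmpk2, which differed in their cell type pattern. Capitals mark the motif or its reverse complement, and each sequence runs 5′ to 3′ on the strand of its gene.
Isg15: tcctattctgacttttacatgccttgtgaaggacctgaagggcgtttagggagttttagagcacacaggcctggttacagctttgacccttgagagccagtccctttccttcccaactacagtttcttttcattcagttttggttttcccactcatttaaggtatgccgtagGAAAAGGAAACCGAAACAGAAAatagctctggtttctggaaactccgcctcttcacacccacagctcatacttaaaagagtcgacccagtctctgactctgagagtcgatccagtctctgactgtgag
Ifi203: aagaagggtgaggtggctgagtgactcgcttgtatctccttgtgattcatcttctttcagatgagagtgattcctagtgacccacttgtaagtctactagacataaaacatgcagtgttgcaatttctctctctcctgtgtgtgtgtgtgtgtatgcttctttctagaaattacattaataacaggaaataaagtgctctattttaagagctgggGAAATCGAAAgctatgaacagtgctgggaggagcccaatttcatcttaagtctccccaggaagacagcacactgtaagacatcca
Ifi44: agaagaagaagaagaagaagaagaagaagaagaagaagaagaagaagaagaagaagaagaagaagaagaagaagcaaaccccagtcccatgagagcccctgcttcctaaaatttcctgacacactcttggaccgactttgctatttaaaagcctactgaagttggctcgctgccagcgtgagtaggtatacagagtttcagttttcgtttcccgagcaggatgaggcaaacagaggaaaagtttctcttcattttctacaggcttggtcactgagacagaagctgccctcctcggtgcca
Trim30a: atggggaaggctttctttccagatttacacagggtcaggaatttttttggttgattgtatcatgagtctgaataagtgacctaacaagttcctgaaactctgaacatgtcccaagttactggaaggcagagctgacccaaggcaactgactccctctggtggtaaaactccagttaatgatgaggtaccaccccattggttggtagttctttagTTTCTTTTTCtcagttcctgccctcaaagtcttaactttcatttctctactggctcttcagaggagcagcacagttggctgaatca
Rsad2: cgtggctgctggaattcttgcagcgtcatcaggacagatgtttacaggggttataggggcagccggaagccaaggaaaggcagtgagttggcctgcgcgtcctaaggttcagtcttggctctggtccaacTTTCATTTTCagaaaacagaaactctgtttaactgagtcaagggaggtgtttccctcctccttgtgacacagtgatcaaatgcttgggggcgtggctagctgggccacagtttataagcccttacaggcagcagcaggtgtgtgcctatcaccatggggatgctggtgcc
Cmpk2: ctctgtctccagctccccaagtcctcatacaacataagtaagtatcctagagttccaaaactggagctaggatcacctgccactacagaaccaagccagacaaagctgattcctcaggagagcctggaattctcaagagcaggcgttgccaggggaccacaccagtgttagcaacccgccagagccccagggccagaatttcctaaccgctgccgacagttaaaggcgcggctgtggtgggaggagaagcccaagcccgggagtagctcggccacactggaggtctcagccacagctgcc
The Isg15 promoter (chr4:156200769-156201068, minus strand) held 3 overlapping matches, the first of which began 78 bases before the start. The Ifi203 window (chr1:173942443-173942742, minus strand) held 1 match, 35 bases before the start, and a second window of the gene (chr1:173942623-173942922) held 0. The Trim30a window (chr7:104465144-104465443, minus strand) held the reverse complement 36 bases before the start. A second window of Trim30a (chr7:104446076-104446375) held it 2 bases after the start. Rsad2 (chr12:26456403-26456702, minus strand) held the reverse complement 120 bases before its start. No match was found in the windows of Ifi44 (chr3:151749861-151750160, minus strand) and Cmpk2 (chr12:26468965-26469264, plus strand).

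The libraries were first checked against their labels. Il33 stood at 96.3, 113 and 108 FPKM in WT astrocytes and at 2.28, 2.05, 0.424 and 0.733 in KO astrocytes, and at 1.26 or less in every microglia library. The log2 difference in astrocytes was −5.55 (limma, adjusted p = 0.01295). The summed FPKM of 10 microglia markers lay between 7090 and 8028 in microglia and between 31.9 and 67.5 in astrocytes. The sum of 10 astrocyte markers lay between 6520 and 11230 in astrocytes and between 71.4 and 113 in microglia. Of these markers, Slc1a2 was listed at 0 in WT astrocytes 1 and KO astrocytes 3. It stood at 1631 to 3996 FPKM in the other astrocyte libraries, so a listed 0 need not mean that a gene was absent. Depth relative to the deepest library was 68.2% to 100% in microglia and 33.8% to 62.8% in astrocytes, so low astrocyte values rest on fewer reads. The FPKM of all genes summed to between 1.19e+06 and 1.43e+06 in microglia and between 1.68e+06 and 3.84e+06 in astrocytes, so totals were not equal between libraries. Xist stood at 268 and 283 FPKM in WT microglia 1 and 2 and below 1 in the other 4 microglia libraries, so sex and genotype were not balanced in microglia. In astrocytes Xist stood at 0.370, 32.9 and 4.10 FPKM in WT and at 0.133, 0.307, 10.1 and 32.4 in KO, so it was uneven within both genotypes. Neutrophil markers summed to 261, 131 and 202 FPKM in WT microglia and to 112, 65.6 and 54.9 in KO microglia, with no overlap, and Ly6g, a defining marker, was listed at 0 in all 6. Border macrophage markers summed to between 227 and 670 FPKM in WT and between 311 and 347 in KO microglia. Neuron markers summed to 32.95, 8.71 and 11.2 FPKM in WT and to 3.22, 4.07 and 5.30 in KO microglia, with no overlap. Oligodendrocyte markers summed to between 4269 and 7833 FPKM in astrocytes, near the astrocyte marker sum, and to between 1030 and 2522 in microglia. The part that these other cells play in the results was not tested. Sex was entered only as an Xist term in alternative fits of the genotype comparisons. In microglia that term in effect leaves WT microglia 3 as the only WT library, so it cannot separate sex from genotype. In such bulk samples fewer cells of a type and less RNA per cell cannot be told apart.

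Levels of the 38 genes differed first of all by cell type. A mean of at least 1 FPKM was reached by 32 of the 38 genes in WT microglia, 33 in KO microglia, 16 in WT astrocytes and 17 in KO astrocytes. Of all genes in the table, 40.2%, 38.7%, 32.97% and 33.85% reached it in the same order. The median of the genes' means was 5.92 FPKM in WT microglia, 6.15 in KO microglia, 0.760 in WT astrocytes and 0.867 in KO astrocytes. Summed over the 38 genes, the level was 424 to 658 FPKM in WT microglia and 432 to 739 in KO microglia. The sum was 99.4 to 155 FPKM in WT astrocytes and 111 to 131 in KO astrocytes, so the cell types did not overlap and the genotypes did.

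**Figure D1:**
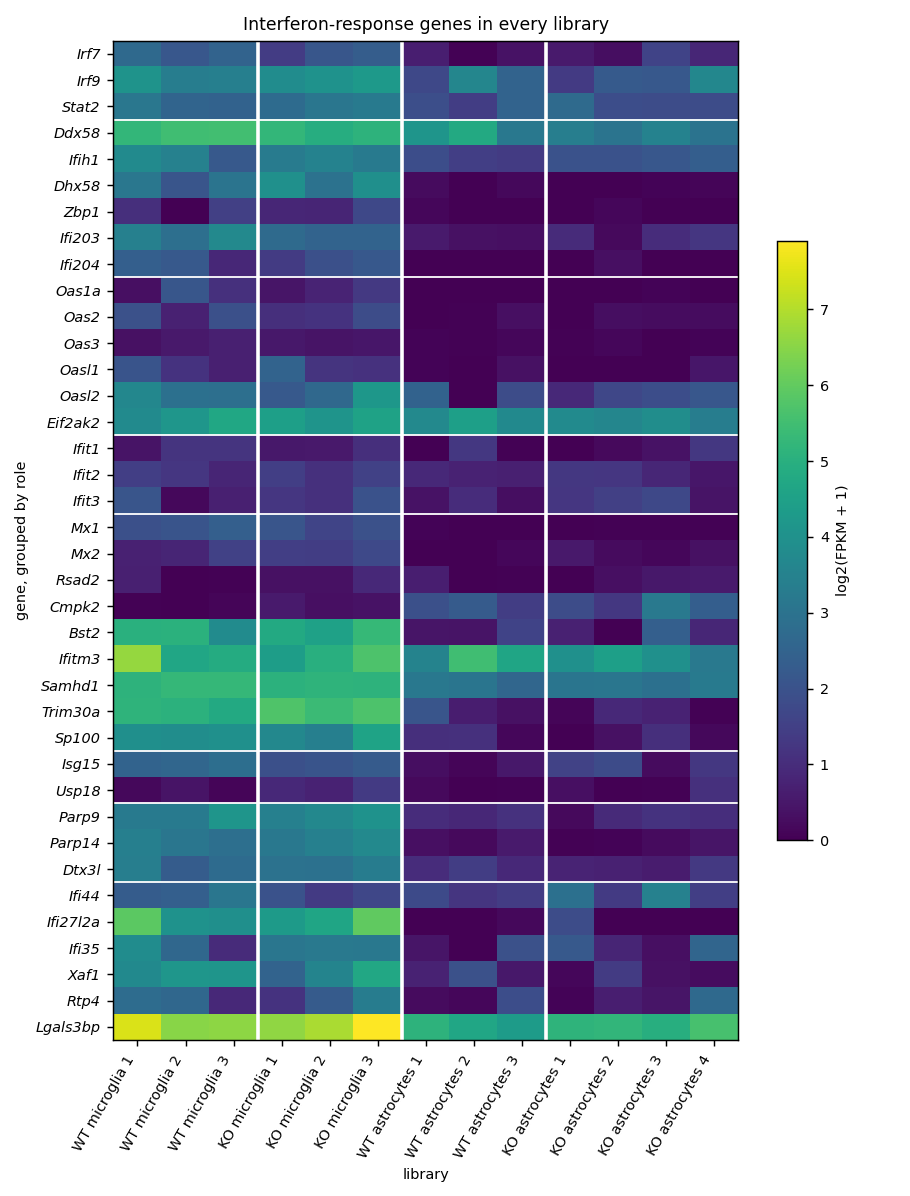
Level of each of the 38 genes (rows, grouped by role and divided by white lines) in each of the 13 libraries (columns), coloured by log2(FPKM + 1). Most rows are brighter in the 6 microglia libraries than in the 7 astrocyte libraries, and Cmpk2 is the reverse.

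In KO against WT microglia, 33 of the 38 genes had a mean of at least 1 FPKM and were tested, and none of them passed an adjusted p of 0.05 with limma in either direction, against 13 of all 15890 genes tested (0.0818%, made up of 0.0566% higher and 0.0252% lower). At an unadjusted p under 0.05, 1 gene was higher and 3 were lower, and the p-values of 1264 of all genes (7.96%) were under that value. The median log2 difference of the 33 genes was 0.19, beside 0.02 for all genes, and 19 were positive and 14 negative. Without KO microglia 3 the median was −0.10, so that its sign rested on that library. The groups did not overlap for 5 of the 33 genes, 1 higher and 4 lower, which as a share is close to the 15.9% of all genes (8.41% higher, 7.48% lower). With 3 libraries against 3, the smallest p an exact permutation test can give is 0.1.

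The sensors detect nucleic acid in the cytosol and start the response. Ifi203, a DNA-binding protein of the HIN-200 family (chr1:173920407-173942672), stood at 9.88, 6.40 and 12.2 FPKM in WT microglia and at 5.63, 4.78 and 4.67 in KO microglia. Every KO library was below every WT library. The log2 difference was −0.76 ± 0.26 (SE; limma, adjusted p = 0.581), and in the authors' deposited table of microglia, which lists 483 genes, the mean normalised count was 1285 in WT and 559 in KO with an adjusted p of 0.0310. Ifi203 shares sequence with Ifi204 and Mndal, so its count is uncertain. Ddx58, which encodes the RNA sensor RIG-I, stood at 36.9, 43.6 and 45.2 FPKM in WT and at 36.8, 29.3 and 33.3 in KO microglia. The highest KO value lay just under the lowest WT value, and the log2 difference was −0.33 ± 0.16 (SE; limma, adjusted p = 0.638). Dhx58, which encodes LGP2, a regulator of RIG-I and MDA5, stood at 7.82, 3.21 and 7.29 FPKM in WT and at 14.6, 6.86 and 14.4 in KO microglia. The groups overlapped through KO microglia 2, and the log2 difference was 0.87 ± 0.42 (SE; limma, adjusted p = 0.615). Ifih1, which encodes MDA5, had a log2 difference of 0.19, which was −0.28 without WT microglia 3 and 1.23 with Xist as a term. Since Xist was high in WT microglia 1 and 2, the latter rests in effect on WT microglia 3 as the only WT library. The values for Zbp1, a sensor of Z-form nucleic acid, and Ifi204 were 0.28 (SE 0.52) and −0.0042 (SE 0.48) on the same scale.

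The transcription factors carry the signal to the promoters. Irf9 stood at 15.7, 9.19 and 9.66 FPKM in WT microglia and at 13.3, 15.2 and 18.6 in KO microglia, with overlap through WT microglia 1. Its log2 difference was 0.44 ± 0.26 (SE; limma, adjusted p = 0.686). For Stat2 the difference was 0.31 (SE 0.26) and for Irf7, the factor that amplifies interferon transcription, −0.51 (SE 0.33).

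Among the antiviral effectors, Trim30a, a TRIM family protein known to restrain inflammatory signalling in mouse cells (chr7:104409025-104465193), stood at 34.5, 32.96 and 27.1 FPKM in WT microglia and at 52.4, 41.1 and 50.8 in KO microglia. The KO libraries were all above the WT libraries. The log2 difference was 0.59 ± 0.18 (SE; limma, adjusted p = 0.553), the smallest p among the 33 genes. It has the close relative Trim30d, and reads of the 2 may be split between them. Samhd1, which depletes the nucleotides that viral DNA synthesis needs, varied least of the named effectors, at 33.4, 37.2 and 37.4 FPKM in WT and 32.6, 34.0 and 33.9 in KO microglia. Ifitm3, which blocks viral entry, stood at 101, 24.9 and 28.0 FPKM in WT and at 19.9, 31.0 and 50.4 in KO microglia. WT microglia 1 was far above the others, and the log2 difference was −0.38 ± 0.62 (SE), and 0.25 without that library. Mx1, Mx2, Bst2 and Sp100 had log2 differences between −0.25 and 0.53, none past the test. Mx2 is annotated as a polymorphic pseudogene rather than as a protein-coding gene.

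Isg15, a ubiquitin-like protein that is joined to other proteins during the response (chr4:156199424-156200818), stood at 4.70, 5.09 and 6.22 FPKM in WT microglia and at 2.83, 3.11 and 3.81 in KO microglia. No KO library reached a WT library, and the log2 difference was −0.58 ± 0.21 (SE; limma, adjusted p = 0.595). Usp18, the protease that removes ISG15, had a mean below 1 FPKM and was not tested, at 0.136, 0.342 and 0.0730 FPKM in WT and 0.862, 0.704 and 1.52 in KO microglia, the opposite order to Isg15. Cmpk2, a mitochondrial nucleotide kinase, was likewise not tested and stood at 0.0284, 0.0149 and 0.0893 FPKM in WT and at 0.476, 0.264 and 0.300 in KO microglia. Both genes were higher in every KO than in every WT library, and the exact two-sided permutation test could give no p below 0.1.

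Ifi44, an interferon-induced GTP-binding protein (chr3:151730922-151749960), stood at 3.91, 4.25 and 7.61 FPKM in WT microglia and at 3.00, 1.55 and 2.24 in KO microglia. Each KO library was below each WT library, and the log2 difference was −0.92 ± 0.32 (SE; limma, adjusted p = 0.582). In the authors' deposited table of microglia its mean normalised count was 597 in WT and 225 in KO with an adjusted p of 0.0409. That table and the one of astrocytes, which lists 10 genes, held 2 and 0 of the 38 genes. The neutrophil marker sums given before moved with genotype in the same direction as Isg15, Ifi203 and Ifi44, and their part was not tested.

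Many members of the OAS family make the messenger that activates RNase L, and PKR (Eif2ak2) halts translation. Those tested had log2 differences between −0.34 and 0.31. Some members of the IFIT family bind viral RNA. This family and the ADP-ribosylation partners Parp9, Parp14 and Dtx3l differed by 0.19 to 0.46 among those tested. Ifi35 (0.67 ± 0.70 SE), Xaf1 (−0.41 ± 0.55 SE) and Rtp4 (0.13 ± 0.74 SE) had wide errors, and none passed the test. Ifit1, Oas3 and Rsad2 were below 1 FPKM on average and were not tested. The Oas, Ifit and Mx genes each have close relatives, so reads shared between copies make their values uncertain. Parp9 and Dtx3l overlap head to head over 458 exonic bases, and without strand information in the sources used here reads there cannot be assigned.

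**Figure D2:**
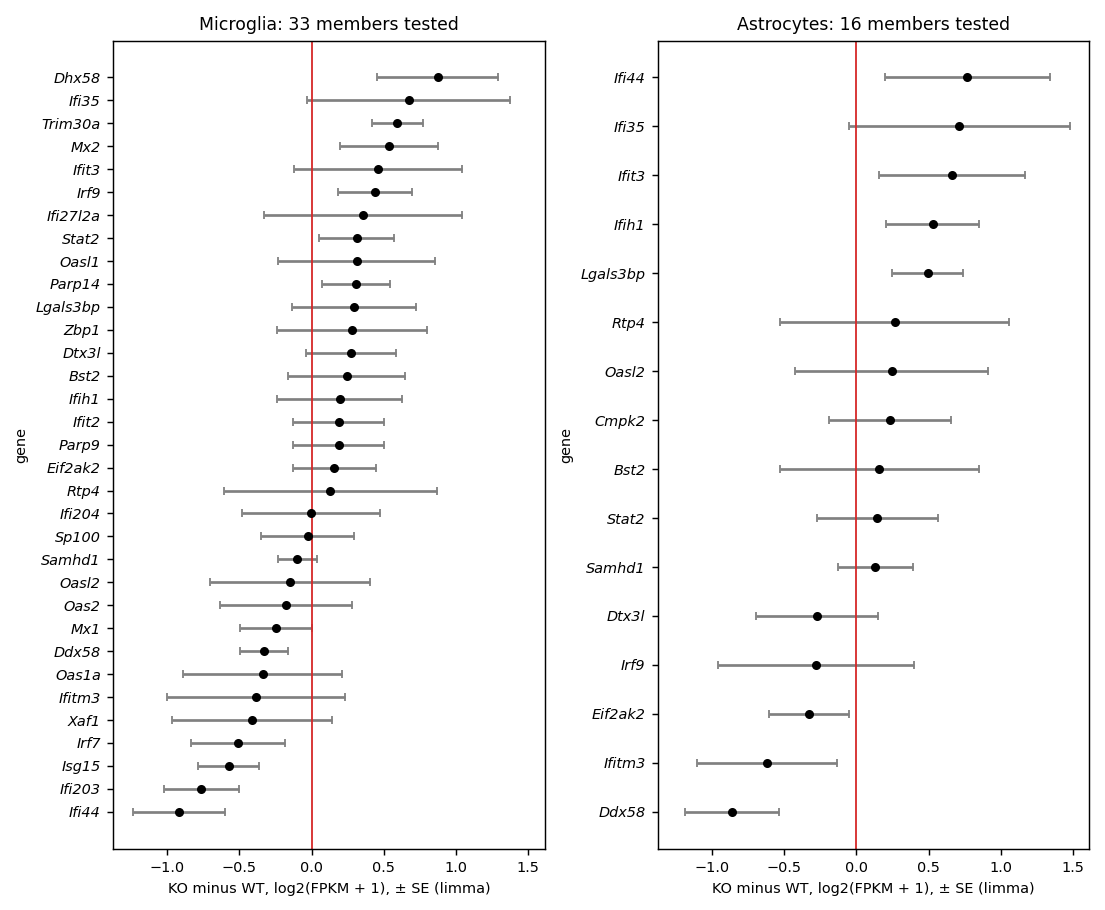
KO minus WT difference on the log2(FPKM + 1) scale (x axis, bars ± SE from limma) for the 33 genes tested in microglia and the 16 tested in astrocytes (y axis). The microglial values run from −0.92 (Ifi44) to 0.87 (Dhx58) and the astrocyte values from −0.86 (Ddx58) to 0.77 (Ifi44), and none passed the test.

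**Figure D3:**
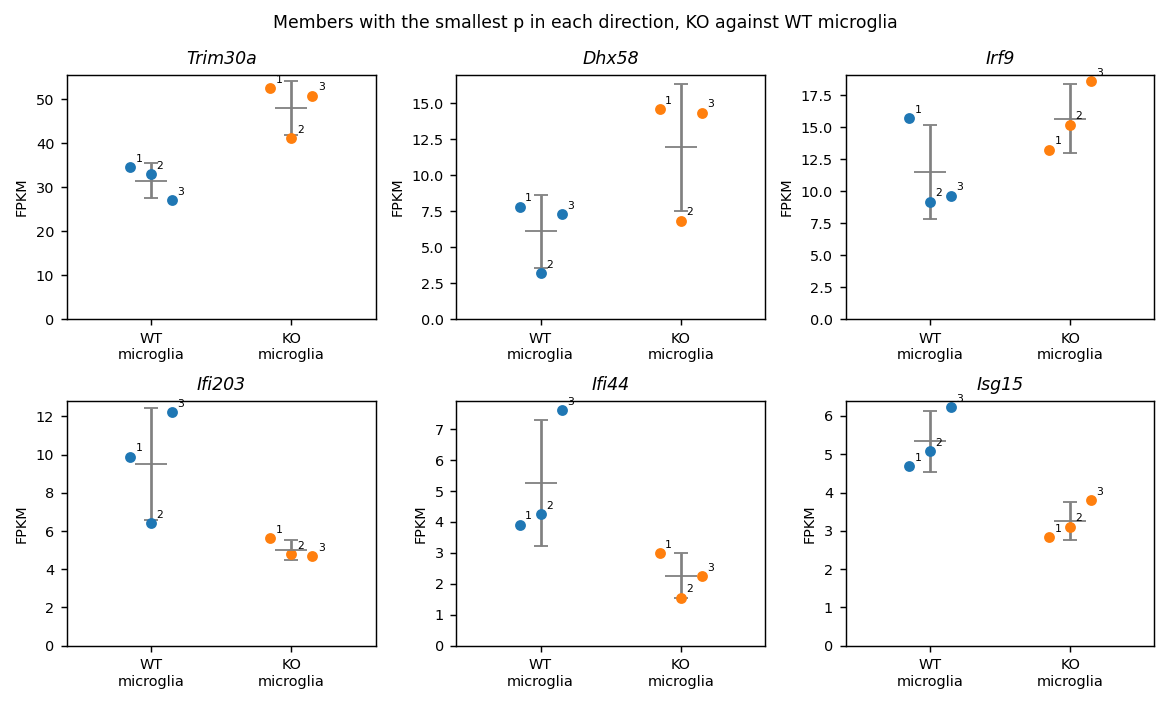
FPKM of the 3 genes with the smallest p in each direction in WT and KO microglia (y axis), with each library as a numbered point and the mean ± SD in grey, 3 libraries a group. Trim30a, Ifi203, Ifi44 and Isg15 show no overlap between the genotypes, whereas Dhx58 and Irf9 do.

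The highest libraries were also counted. This was done after the values were seen, so it carries no test. KO microglia 3 was the highest KO library for 23 of the 33 tested genes (69.7%), against 28.7% of all 15890 genes. WT microglia 1 was the highest WT library for 19 (57.6%, against 35.2% of all genes). WT microglia 1 and KO microglia 3 were together the 2 highest of the 6 libraries for 9 of the 33 genes (27.3%), against 5.09% of all genes. The 9, which this count selects and which support nothing further, were Irf9, Stat2, Oasl2, Ifit3, Ifitm3, Dtx3l, Ifi27l2a, Rtp4 and Lgals3bp. Ifi27l2a stood at 59.2, 15.3 and 14.2 FPKM in WT microglia and at 18.7, 24.4 and 61.6 in KO microglia, and Lgals3bp, a secreted glycoprotein, at 174, 90.4 and 93.4 and at 95.5, 119 and 239 FPKM. Oasl2 followed with 11.8, 6.55 and 6.38 FPKM in WT and 3.57, 5.36 and 17.0 in KO microglia. Of 26 other interferon-stimulated genes tested in microglia, KO microglia 3 was the highest KO library for 18 and WT microglia 1 the highest WT library for 12. For 3 of the 26, WT microglia 1 and KO microglia 3 were the 2 highest libraries. The shares of all genes are those given above. WT microglia 1 also held the highest border macrophage and neutrophil marker sums of its genotype (670 and 261 FPKM), whereas KO microglia 3 held 328 and 54.9 FPKM, the lowest neutrophil sum of the 6. Their part in the pattern was not tested.

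**Figure D4:**
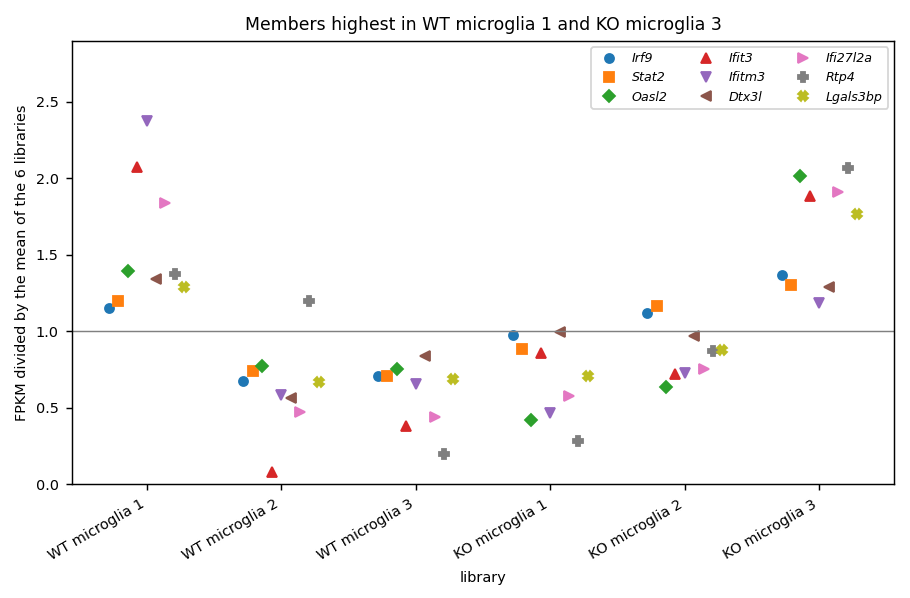
FPKM of each of 9 genes divided by its mean over the 6 microglia libraries (y axis) in each library (x axis). The genes were chosen because their 2 highest points lie in WT microglia 1 and KO microglia 3.

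In KO against WT astrocytes, 16 of the 38 genes were tested and none passed an adjusted p of 0.05 with limma in either direction, against 3 of 13397 genes (0.0224%, made up of 0.00746% higher and 0.0149% lower). At an unadjusted p under 0.05, 1 of them was lower and 0 were higher, and 561 of all genes (4.19%) had a p under that value. The median log2 difference was 0.20, beside 0.00 for all genes. With 3 WT and 4 KO libraries the smallest p of an exact permutation test is 0.02857. Ddx58 had the smallest p, standing at 16.4, 26.9 and 7.96 FPKM in WT and at 9.34, 7.22, 10.4 and 7.03 in KO astrocytes. The groups overlapped through the day 9 WT library, and the log2 difference was −0.86 ± 0.33 (SE; limma, adjusted p = 0.921). Ifih1 stood at 2.63, 1.79 and 1.61 FPKM in WT and at 2.96, 2.95, 3.45 and 4.17 in KO astrocytes. It was the only tested gene of the 38 whose astrocyte groups did not overlap, beside 4.68% of all genes (2.32% higher, 2.36% lower), and its log2 difference was 0.53 ± 0.32 (SE; limma, adjusted p = 0.921). Ifi44 stood at 2.40, 1.35 and 1.66 FPKM in WT and at 6.55, 1.53, 10.1 and 1.75 in KO astrocytes. KO libraries 1 and 3 lay above the rest and libraries 2 and 4 lay within the WT range. Ifitm3 had no KO library above 21.1 FPKM, at 14.6, 21.1, 14.5 and 8.25, against 10.7, 43.5 and 24.0 in WT (log2 −0.62 ± 0.48 SE). Eif2ak2 differed by −0.33 ± 0.28 (SE), at 12.1, 20.9 and 12.5 FPKM in WT and 12.7, 11.5, 13.8 and 9.17 in KO. Ddx58, Ifitm3 and Eif2ak2 were each highest in WT astrocytes 2, which had the lowest depth (33.8%) and the largest FPKM total (3.84e+06). The part of that library's scale was not tested. Lgals3bp stood at 33.4, 24.8 and 19.1 FPKM in WT and at 34.3, 35.9, 29.97 and 47.7 in KO astrocytes, with a log2 difference of 0.49 ± 0.25 (SE; limma, adjusted p = 0.921). Isg15 was below the filter, at 0.236, 0.0841 and 0.437 FPKM in WT and 1.98, 2.47, 0.180 and 1.43 in KO astrocytes, with KO library 3 within the WT range.

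Whether the genotype difference itself differed between the cell types was tested as an interaction in a fit of all 13 libraries. None of 29 genes tested passed with limma in either direction, against 23 of 16258 genes (0.141%, made up of 0.0861% higher and 0.0554% lower). At an unadjusted p under 0.05, 3 were lower, which means a lower KO minus WT difference in microglia than in astrocytes. Of all genes, 1076 (6.62%) had a p under that value. The 3 genes were Isg15 (log2 −1.53 ± 0.47 SE; limma adjusted p = 0.581), Ifi203 (−1.16 ± 0.38 SE; limma adjusted p = 0.647) and Ifi44 (−1.69 ± 0.68 SE; limma adjusted p = 0.751). The KO minus WT difference of these 3 genes was negative in microglia. In astrocytes Ifi44 had the opposite sign and the other 2 fell below the filter.

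The cell types differed far more than the genotypes. In WT microglia against WT astrocytes, 19 of the 29 genes tested were higher and 1 was lower with limma at an adjusted p of 0.05, against 53.6% of all 16258 genes called (29.1% higher, 24.5% lower). Genes entered this fit by their mean over all 13 libraries, so a gene low in astrocytes could be tested through microglia alone. Among those called higher, Ifi204 and Mx1 had WT astrocyte means of 0 and 0.0345 FPKM. The filter thus favours genes high in 1 cell type, among the 29 as among all genes, and the counts are descriptions. The median log2 difference was 1.89, beside 0.21 for all genes. In KO microglia against KO astrocytes, 20 were higher and 1 lower, against 56.9% of all genes (31.9% higher, 25.1% lower), with a median of 1.67 beside 0.24. The groups did not overlap for 21 of the 29 genes in WT cells, 20 higher and 1 lower in microglia, against 55.8% of all genes (30.1% higher, 25.7% lower), and for 23 in KO cells, 22 higher and 1 lower, against 62.3% (34.2% higher, 28.1% lower). The 2 comparisons use different libraries of each cell type, but share the fit. All 5 sensors tested and all 3 ADP-ribosylation partners were higher in microglia in both genotypes, with the WT calls of Ddx58, Ifih1 and Ifi204 lost when WT libraries were fitted alone.

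Ifi27l2a, an interferon-induced mitochondrial protein, had the largest difference in WT cells, with 59.2, 15.3 and 14.2 FPKM in microglia and 0, 0 and 0.115 in astrocytes (log2 4.48 ± 0.71 SE; limma adjusted p = 3.208e-04). Trim30a had 0.565 and 0.278 FPKM in WT astrocytes 2 and 3 and 3.25 in WT astrocytes 1 (log2 3.94 ± 0.45 SE; limma adjusted p = 2.988e-05). Bst2, or tetherin, which holds budding virus at the cell surface, stood at 31.5, 32.4 and 13.1 FPKM in WT microglia and 0.356, 0.338 and 2.00 in WT astrocytes (log2 3.77 ± 0.63 SE; limma adjusted p = 5.021e-04). For these 3 genes every WT microglia library was above every WT astrocyte library. Xaf1, a protein that promotes cell death, stood at 12.5, 16.9 and 16.4 FPKM in WT microglia and at 0.678, 2.895 and 0.439 in WT astrocytes (log2 3.01 ± 0.60 SE; limma adjusted p = 0.00165). The microglia marker sum in astrocytes was 0.594% of its level in microglia in WT and 0.739% in KO. Of the 38 genes, 35 stood above that share in WT astrocytes and 37 in KO astrocytes. How many of all genes stand above it was not counted, so the counts show nothing particular to the list. Some passed through 1 library near the floor, as Zbp1 did in WT astrocytes (0.104 FPKM) and Oas1a in KO astrocytes (0.0441 FPKM). The share is also rough, since the marker Sall1 alone gave 10.25 to 26.8 of the 31.9 to 59.2 FPKM in WT astrocytes.

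Cmpk2 (chr12:26469204-26479837) was the only gene called lower in microglia, in both genotypes. It stood at 2.78, 3.78 and 1.70 FPKM in WT astrocytes and at 2.61, 1.44, 8.27 and 4.14 in KO astrocytes, against 0.0893 or less in WT microglia (log2 −2.12 ± 0.37 SE; limma adjusted p = 6.509e-04). The difference was −1.99 ± 0.34 in KO cells (SE; limma adjusted p = 5.31e-04). Rsad2, which encodes viperin, is the neighbour of Cmpk2 and starts in the opposite direction 12.8 kb away. It was below 1 FPKM in all 13 libraries, at 0.582, 0 and 0.0407 in WT astrocytes and 0.614, 0.0156 and 0.0372 in WT microglia. The astrocyte marker sum in microglia was 0.993% of its astrocyte level in WT and 1.13% in KO, and Cmpk2 stood at 1.61% and 8.43% of its astrocyte level.

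Several genes did not pass the test between the cell types. Eif2ak2 stood at 12.7, 16.7 and 25.2 FPKM in WT microglia and at 12.1, 20.9 and 12.5 in WT astrocytes (log2 0.18 ± 0.31 SE; limma adjusted p = 0.648). In KO cells its groups did not overlap, at 21.01, 16.03 and 22.5 FPKM in microglia and at most 13.8 in astrocytes (log2 0.66 ± 0.28 SE; limma adjusted p = 0.067). Ifitm3 stood at 10.7, 43.5 and 24.0 FPKM in WT astrocytes, of which 43.5 lay within the range of WT microglia and the other values below it (log2 1.00 ± 0.65 SE; limma adjusted p = 0.219). Ifit2 and Ifit3 had log2 differences of 0.43 and 0.42. Ifi44 had a log2 difference of 0.89 in WT cells and −0.80 in KO cells and neither passed the test, although its WT groups did not overlap. Some calls depended on single libraries or on the libraries fitted. Oasl2 was called in WT cells (adjusted p = 0.0487 with limma) and was lost in 10 of 13 fits that left out a library, with adjusted p up to 0.287. With the 6 WT libraries fitted alone, the WT calls of Ddx58, Ifih1 and Ifi204 were lost as well (limma adjusted p = 0.0589, 0.0957 and 0.065), and that of Ifih1 also under quantile normalisation (limma adjusted p = 0.0575). In KO cells the call of Irf7, whose groups overlapped, was lost in 10 of 17 alternative fits (limma adjusted p up to 0.538). The call of Irf9 was lost in 7 (up to 0.0870), and those of Stat2 and Isg15 in 5 each (up to 0.111 and 0.408). Ifih1 lost its call in 2 (up to 0.0876). Fits that left out a library made up 1 to 6 of these losses for each gene. Without KO astrocytes 4, Ifi44 was lower in KO microglia than in KO astrocytes (log2 −1.22; limma adjusted p = 0.0402) and Rtp4, a chaperone of membrane receptors, was higher (log2 2.203; limma adjusted p = 0.0223). In WT cells Stat2 and Ifi35 each gained a call in 3 of 17 alternative fits (limma adjusted p down to 0.0257 and 0.0241). In KO cells Eif2ak2 gained one in 3 (down to 0.0332), Ifitm3 and Ifi35 in 2 each (0.0292 and 0.0391) and Oasl2 in 1 (0.0394).

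**Figure D5:**
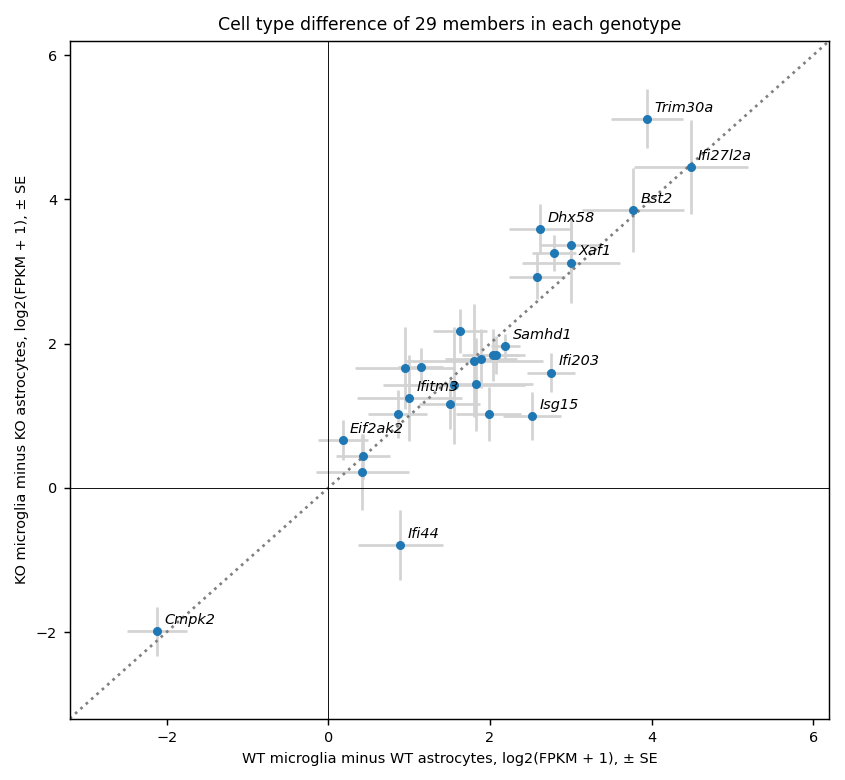
Microglia minus astrocytes on the log2(FPKM + 1) scale in WT (x axis) and in KO (y axis) for 29 genes, bars ± SE from limma, the dotted line marking equal differences. Most genes lie in the upper right, Cmpk2 lies at −2.12 and −1.99, and Ifi44 lies at 0.89 and −0.80.

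The rest of the pathway was read from lists of genes named for their role. Of 17 type I interferon genes, 9 were listed at 0 in all 13 libraries, and only Ifnb1 (1.71 FPKM) and Ifna14 (2.28 FPKM) reached 1 FPKM, both in WT microglia 3. None was high enough to be tested. Of the receptor and its kinases, Tyk2 stood in microglia at 5.94, 4.15 and 5.87 FPKM in WT and 7.54, 8.68 and 7.58 in KO (log2 0.51 ± 0.20 SE; limma, adjusted p = 0.595). Its KO libraries were all above its WT libraries. Ifnar1 stood at 25.0, 21.4 and 28.9 FPKM in WT and at 41.0, 33.3 and 26.8 in KO microglia, with overlap.

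Among the 14 genes of nucleic acid sensing upstream of interferon, Irf3, the factor that switches on the interferon beta gene, stood at 19.9, 24.3 and 24.0 FPKM in WT and at 41.0, 27.7 and 33.8 in KO microglia (log2 0.56 ± 0.20 SE; limma, adjusted p = 0.595). All KO values were above all WT values. Tlr9, an endosomal sensor of DNA, differed by 0.51 ± 0.22 (SE; limma, adjusted p = 0.595). Of the 8 negative regulators, Socs3, an inhibitor of JAK and STAT signalling, stood at 68.5, 58.2 and 77.6 FPKM in WT and at 45.4, 38.2 and 42.7 in KO microglia (log2 −0.68 ± 0.17 SE; limma, adjusted p = 0.518). The authors' deposited table of microglia gave it 4816 in WT and 3266 in KO, with an adjusted p of 0.0319. In astrocytes Rnaseh2b, a subunit of the enzyme that removes RNA from DNA, differed by −0.93 ± 0.35 (SE; limma, adjusted p = 0.921).

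Of the 31 other interferon-stimulated genes, Znfx1, an RNA helicase, stood at 15.6, 11.8 and 18.8 FPKM in WT and at 21.6, 22.2 and 21.5 in KO microglia (log2 0.50 ± 0.20 SE; limma, adjusted p = 0.595), and Ifi47 differed by 0.64 ± 0.26 (SE). In astrocytes Parp10 differed by −1.61 ± 0.58 and Pml by 0.78 ± 0.33 (SE; limma, adjusted p = 0.921 for both). None of the genes in these lists passed the limma test between genotypes. At an unadjusted p under 0.05 with limma, microglia had 1 of 13 sensing genes, 1 of 7 regulators and 1 of 26 other interferon-stimulated genes, and astrocytes had 0 of 12, 1 of 6 and 2 of 17. Over all genes the shares were 7.96% in microglia and 4.19% in astrocytes.

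Between the cell types, Ifnar1, Ifnar2 and Tyk2 were higher in microglia in both genotypes (limma). Ifnar2 stood at 99.6, 77.8 and 89.6 FPKM in WT microglia and at 26.6, 8.91 and 29.6 in WT astrocytes. Jak1 was higher in KO microglia and did not pass in WT cells, at 49.1 to 53.4 FPKM in microglia and 46.0 to 49.3 in astrocytes. Of the 14 sensing genes, 9 were higher in WT microglia and 0 lower, and 10 were higher in KO microglia with Tlr3 and Ikbke lower. Tlr9 (30.5 to 51.2 FPKM in WT microglia, at most 0.459 in WT astrocytes) and Unc93b1, which carries endosomal Toll-like receptors to their compartment (197 to 218 and at most 2.80), had the smallest p. Tlr3, an endosomal sensor of double-stranded RNA chosen after its values were seen, stood at 23.4 to 36.8 FPKM in WT microglia and 16.1 to 43.8 in WT astrocytes. Of 7 regulators tested, 2 were higher and 1 lower in WT microglia and 2 higher in KO microglia. Of 24 other interferon-stimulated genes tested, 13 were higher and 2 lower in WT microglia, and 17 were higher and 1 lower in KO microglia. Over all genes, 29.1% were higher and 24.5% lower in WT, and 31.9% and 25.1% in KO. The filter over all 13 libraries applies to these counts too. Ly6e, a membrane protein that limits viral fusion, stood at 265 to 449 FPKM in WT microglia and at 4.02 to 20.95 in WT astrocytes. The lower genes were Ifit3b and Ly6a in WT cells and Ifit3b in KO cells, so the list was not uniform in direction.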

How the data were processed

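Per the labels' protocols, RNA of the sorted cells was extracted with TRIZOL, freed of genomic DNA and converted to cDNA libraries with a NuGEN kit. The submitters' processing notes name build GRCm38 and, with no order, the tools Bowtie2 2.2.3, TopHat2 2.0.11, HTSeq 0.6.1p1, Cufflinks, Cuffnorm, DESeq2 and FastQC. The authors deposited FPKM of 39171 genes in 13 libraries, and the method that scaled them between libraries is not given in the sources used here. For each cell type the authors deposited a further table with, per the file headers, the mean normalised signal of each genotype, log2 fold changes of WT over KO, a test score, and p-values raw and adjusted. Absolute depth is unknown, and relative depth was read from the steps of the lowest FPKM.

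Coordinates and gene types came from GENCODE release 21 on GRCm38. Linear models with a trended empirical Bayes variance and two-sided p-values (limma 3.58.1, R 4.3.3) were fitted to log2(FPKM + 1). Genes with a mean of at least 1 FPKM over the libraries of the fit, and Il33, were tested. The threshold was a Benjamini-Hochberg adjusted p under 0.05 over all genes. For low genes, log2 differences on that scale are smaller than the true ratio. One fit held the microglia, another the astrocytes with postnatal day, and a fit of 13 libraries with day gave the interaction and the cell type comparisons. An exact two-sided permutation test on mean FPKM was run for single genes. The fits were tested on simulated data. Alternatives were another pseudocount, no filter, quantile normalisation, a replicate block, Xist as a term, no term for day, day 12 alone, each genotype alone, and leaving out each library. Values in every library are given for the 4 genes of highest mean in WT cells of each type, the 3 with the smallest p per direction in each genotype comparison, those in the authors' deposited tables, and the 4 with the largest differences per direction between WT cell types. Usp18, Oasl2 and Rsad2 were chosen after their values were seen. From each further list the genes with the smallest p are named, and the receptors and kinases are given by gene. A gene of that group is not reported here. The genes and lists were chosen with earlier results of these data known.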

Additional observations from a re-analysis of the deposited data

Results flagged for a closer look

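Of the 16 genes tested in astrocytes, 2 had a KO library whose distance from its nearest neighbour, as a share of the range of the 4 libraries, was above Dixon's critical value at the 95% level. Chance flags about 1 in 20 groups. Stat2 stood at 5.65 FPKM in KO astrocytes 1 and at 2.65, 2.57 and 2.60 in the other 3. That library also had the highest neuron marker sum of its group (214 FPKM, against 39.0, 44.4 and 106), whose part was not tested. Rtp4 stood at 5.51 FPKM in KO astrocytes 4 and at 0.0512, 0.574 and 0.361 in the other 3. Different libraries were high for the 2 genes.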

How the results depend on the processing

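None of the 38 genes was called between genotypes or in the interaction under any alternative run. With a pseudocount of 0.1 FPKM, 25 genes of the whole table were called in microglia and 5 in astrocytes, and the median of the tested genes was 3.23 between WT and 2.08 between KO cell types. Without a filter the counts were 7, 0 and, for the interaction, 37, and the medians were 0.098 in astrocytes, 1.53 between WT and 1.43 between KO cell types. Quantile normalisation gave medians of 0.080, 1.37 and 1.28, and 2 genes lower in KO microglia than in KO astrocytes (Cmpk2 and Ifi44, log2 −1.45 for Ifi44). With Xist as a term, 258 genes were called in microglia and 1 in astrocytes. Day 12 alone gave 0 genes in astrocytes and a median of 0.39. The cause of these moves was not tested. The replicate block gave 3 genes called in microglia and 0 in astrocytes, and it changed no call of the 38. Deviations of same-numbered libraries from their group means correlated between −0.078 and 0.028. In microglia these correlations were 0.028, 0.0099 and 0.023, and those of differently numbered libraries lay between −0.022 and −0.00013. Values so near 0, from groups of 3 or 4 libraries, cannot decide whether equal numbers mark a shared litter or batch. In astrocytes the numbers 2 and 3 each joined a day 9 with a day 12 library. The largest correlation, 0.126, was between WT astrocytes 3 and KO astrocytes 2, both from day 9. Leaving out each library gave 18 to 48 genes and medians of −0.10 to 0.33 in microglia, 0 to 8 genes and 0.17 to 0.40 in astrocytes, 15 to 75 genes and −0.14 to 0.21 for the interaction, medians of 1.61 to 2.07 between WT cell types, and 1 to 2 genes lower in KO microglia than in KO astrocytes. An arm of 2 libraries then shares its spread with the other groups. In astrocytes 22 of the 38 genes were below the filter. In microglia the uncalled differences of some genes turned sign, Lgals3bp (−0.092) and Ifi27l2a (−0.14) without KO microglia 3, Bst2 (−0.16) and Ifih1 (−0.28) without WT microglia 3, Xaf1 (0.13) without KO microglia 1, and Ifitm3 (0.25) and Eif2ak2 (−0.062) without WT microglia 1. With Xist as a term Ifitm3 (0.17) and Eif2ak2 (−0.39) turned and Bst2 was 1.11. In astrocytes Ifitm3 (0.024), Irf9 (0.30) and Bst2 (−0.11) turned without WT astrocytes 2, Cmpk2 (−0.034) without KO astrocytes 3, Irf9 (0.072) without KO astrocytes 1, Samhd1 (−0.025) on day 12 alone or without either day 9 library, and Bst2 also without WT astrocytes 1, with the other pseudocount (−0.11) and with quantile normalisation.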

Other observations

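Of 20 genes of the type II interferon response, 12 were tested between cell types. Of these, 9 were higher in WT microglia and 0 lower, and 10 were higher in KO microglia and 0 lower (limma), against 29.1% and 31.9% higher among all genes. Here too the filter was the mean over all 13 libraries. Irf8, a factor of the myeloid lineage, stood at 55.4 to 67.9 FPKM in WT microglia and at most 0.292 in WT astrocytes, and Ifngr1, a chain of the interferon gamma receptor, at 128 to 137 and at 8.94 to 14.1 FPKM. Ifng was listed at 0 in every WT library and was at most 0.0712 FPKM in KO microglia. Between genotypes none of 13 genes in microglia and of 7 in astrocytes passed with limma, and at an unadjusted p under 0.05 there were 3 and 0, against 7.96% and 4.19% of all genes. Cxcl10, an interferon-induced chemokine, stood at 93.0, 79.3 and 78.5 FPKM in WT microglia and at 15.2, 14.7 and 30.6 in KO microglia (log2 −2.08 ± 0.31 SE; limma, adjusted p = 0.239). In the authors' deposited table of microglia its mean normalised count was 1886 in WT and 482 in KO, with an adjusted p of 3.54e-08. Ifngr1 stood at 137, 128 and 135 FPKM in WT and at 184, 198 and 165 in KO microglia (log2 0.45 ± 0.14 SE; limma, adjusted p = 0.553).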
